A study of Mus musculus with 27 samples.

Results

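The Bcl2 family decides at the mitochondrion whether a stressed cell lives or dies, and 10 of its genes were followed here: Bcl2, Bcl2l1, Mcl1, Bax, Bak1, Bid, Bcl2l11, Bmf, Bbc3 and Pmaip1. The members were chosen by name, with earlier results of these data known. Both deposited RNA tables listed all 10, the parental table among 23295 genes and the table of cells with short hairpin RNAs (shRNA) among 24247. Levels are FPKM, fragments scaled for transcript length and for the number of mapped fragments. A gene was tested if at least 2 libraries of its table had an FPKM of 1 or more, which all 10 members did, as did 11309 and 11450 genes in all.

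The proteins of the family fall into classes. Survival members (Bcl2, Bcl2l1, which encodes BCL-XL, and Mcl1) hold the effectors Bax and Bak1 in check, and freed effectors make pores in the outer mitochondrial membrane, through which cytochrome c leaves and caspases are switched on. The BH3-only members (Bid, Bcl2l11, which encodes BIM, Bmf, Bbc3, which encodes PUMA, and Pmaip1, which encodes NOXA) carry stress signals to the other members by binding them. In epithelial cells, TGF-β is known both as an inducer of the epithelial-to-mesenchymal transition (EMT) and as a signal that can lead to apoptosis, and Bmf and Bcl2l11 are known among the genes that respond to it or to loss of attachment.

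NMuMG, an established line from normal mammary gland epithelium of the mouse, was studied before TGF-β and after 8 and 24 h with it, at a labelled concentration of 1 to 5 ng/ml. RNA-seq was made from parental cells (6 libraries), and from cells that carried a control shRNA or an shRNA against lamin B1 (KD), each at the same 3 times (12 libraries), with 2 libraries in every group. According to the study's methods the hairpins were carried by lentivirus. Lamin B1 ChIP-seq and ATAC-seq, which maps open chromatin, gave 1 peak list for each time and have no replicate. Each lamin B1 list came from parallel ChIPs that were mixed, on material enriched for euchromatin by light sonication, so the peaks describe that fraction of the genome. The study's methods call the pair of RNA libraries in each group biological replicates. The labels do not say whether they came from separate cultures, so the p-values measure the spread between these libraries.

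Lmnb1, the targeted gene, stood between 29.2 and 36.5 FPKM in untreated control cells and at 9.01 and 9.27 in untreated KD cells, and it was lower in KD than in control cells at every time, without overlap. In parental cells Lmnb1 itself went from 36.9 and 36.3 FPKM to 19.5 and 17.6 at 24 h of TGF-β. The TGF-β response was present in parental cells, with Fn1, the gene of fibronectin, higher by 3.06 and Id1 lower by 2.54 at 24 h, both as differences of log2(FPKM + 1). The epithelial markers Krt8, Krt18 and Cdh1 were well above 1 FPKM in all 18 RNA libraries, whereas Cldn7 did not exceed 0.0379 FPKM and Esrp1 did not exceed 0.324. Of 5 leukocyte markers, of which Adgre1 was in the shRNA table only, none exceeded 0.325 FPKM and of 3 endothelial markers none exceeded 0.834, and Fabp4, an adipocyte marker, was at 4.61 to 5.87 FPKM in parental libraries and at most 0.203 in shRNA libraries. Because whole cultures were measured, fewer cells of a type and less RNA per cell cannot be told apart. The parental and shRNA tables were made separately, so differences were tested only within a table. Where levels from both tables are set side by side, as for Fabp4, the difference was not tested.

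The sequences just upstream of 4 members are shown. Bcl2l1, Bcl2l11 and Bmf had wide changes in parental cells, and Mcl1 went in opposite directions in parental and control cells. Peaks of lamin B1 or open chromatin lay over all 4, as they did for some members not shown. Not every member with a wide change is shown. Each sequence is the 200 bases before the annotated gene start on mm9, written 5′ to 3′ on the strand of the gene. Capitals mark the GC box (GGGCGG on either strand), a motif bound by Sp1-type factors. Bcl2l1 (chr2:152657465-152657664, minus strand) had none, Mcl1 (chr3:95462443-95462642, plus strand) had 1, Bcl2l11 (chr2:127951574-127951773, plus strand) had 2 and Bmf (chr2:118375424-118375623, minus strand) had none.
Bcl2l1: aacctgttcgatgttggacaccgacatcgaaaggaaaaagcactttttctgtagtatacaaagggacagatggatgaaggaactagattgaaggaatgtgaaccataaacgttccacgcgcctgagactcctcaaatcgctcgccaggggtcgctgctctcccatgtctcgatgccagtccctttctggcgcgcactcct
Mcl1: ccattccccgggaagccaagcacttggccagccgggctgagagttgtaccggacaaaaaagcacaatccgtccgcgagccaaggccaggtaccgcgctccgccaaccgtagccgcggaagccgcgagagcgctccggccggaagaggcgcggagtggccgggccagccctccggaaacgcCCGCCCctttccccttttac
Bcl2l11: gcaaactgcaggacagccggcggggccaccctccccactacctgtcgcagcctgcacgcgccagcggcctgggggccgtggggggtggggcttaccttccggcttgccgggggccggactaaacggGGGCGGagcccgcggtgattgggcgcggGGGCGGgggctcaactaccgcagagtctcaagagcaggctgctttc
Bmf: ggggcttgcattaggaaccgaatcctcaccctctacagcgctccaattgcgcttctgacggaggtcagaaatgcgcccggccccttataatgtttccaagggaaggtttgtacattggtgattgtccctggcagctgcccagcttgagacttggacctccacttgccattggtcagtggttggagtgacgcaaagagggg

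Over all 10 members, the GC box was found in 8 of these upstream windows, and in 39% of the same windows of 20991 genes. G and C made up between 50.5% (Bcl2l1) and 82.5% (Bbc3) of the bases, with a median of 56% over all genes. These backgrounds include genes that failed the expression filter, which all 10 members passed, and expressed genes alone were not compared. The CCAAT box was in the windows of Bcl2l11 and Bmf (30.9% of all windows), and the short Smad-binding letters CAGAC were in that of Pmaip1 (34.1%). The forkhead motif GTAAACA was in the window of Bak1 (2.17%), and TATAAA (9.69%), the AP-1 letters TGANTCA (4.86%) and the E-box CACCTG (13.5%) were in none. All motifs were searched on both strands, and a match is a description of the letters and not of binding.

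The levels of the members spanned a wide range, and FPKM allows them to be set against one another because it is per length. In untreated parental cells the mean FPKM was 258 for Bax, 50.2 for Mcl1, 46.9 for Bcl2l1, 42.9 for Bid, 38.3 for Bak1, 17.8 for Bmf, 13.2 for Pmaip1, 6.21 for Bbc3, 3.54 for Bcl2l11 and 2.64 for Bcl2. No neighbours in this order overlapped between their 2 libraries. Bax stood highest in all 9 groups and Bcl2 lowest, though Bcl2 and Bcl2l11 overlapped in KD cells at 24 h. By 24 h of TGF-β the parental order had become Bax, Mcl1, Bmf, Bak1, Bid, Pmaip1, Bcl2l1, Bcl2l11, Bbc3 and Bcl2, so that Bmf had moved from the sixth place to the third and Bcl2l1 from the third to the seventh. In the shRNA cells several neighbours did overlap, among them Mcl1 and Bcl2l1 in untreated control cells, Mcl1 and Bak1 in control cells at 24 h, and Bcl2l1 and Bid at 24 h in both control and KD cells.

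**Figure D1:**
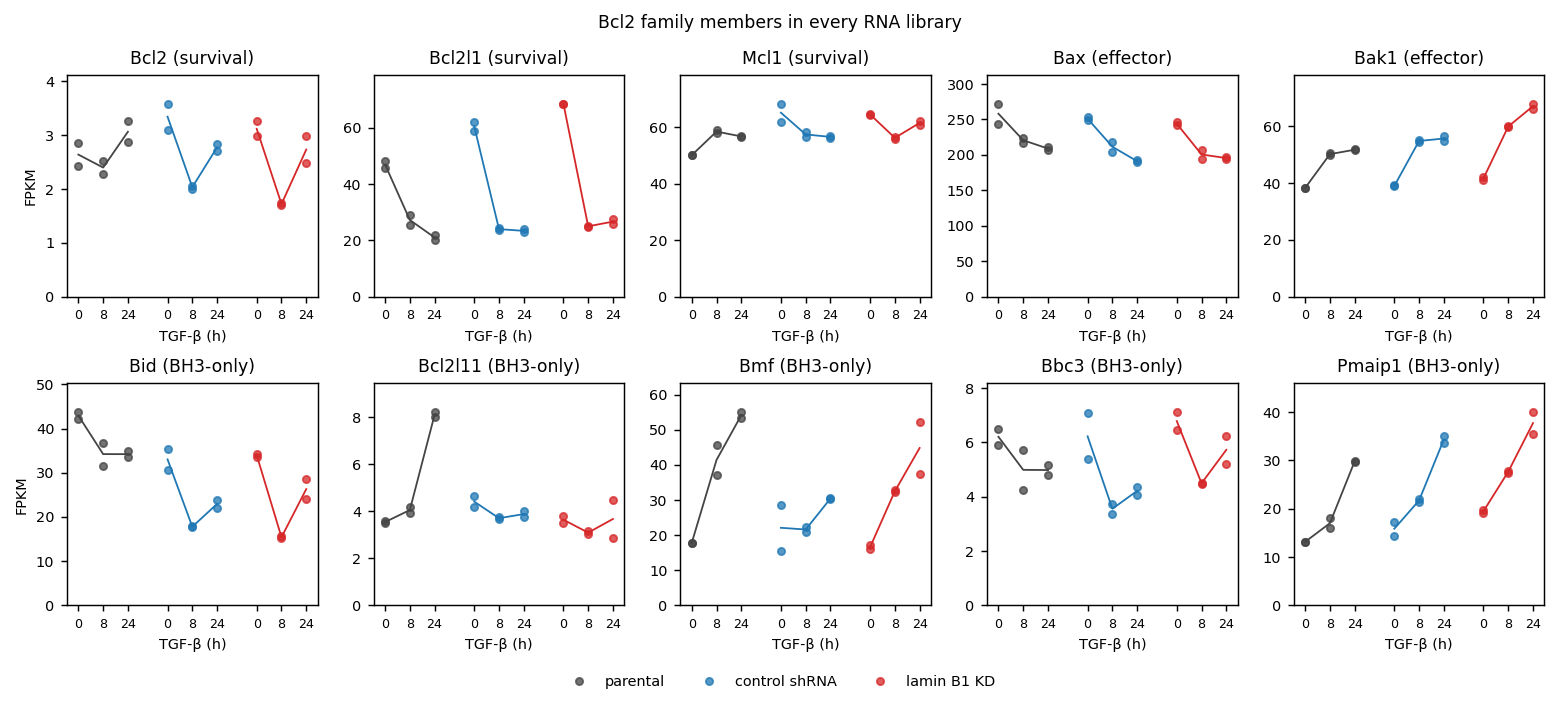
Each panel plots 1 member: the vertical axis is FPKM from 0 and the horizontal axis is hours of TGF-β, points are libraries and lines join the group means in parental (grey), control shRNA (blue) and lamin B1 KD cells (red). Bcl2l1 fell in all 3 kinds of cell and Pmaip1 rose in all 3, whereas Bcl2l11 rose to 7.99 and 8.20 FPKM at 24 h in parental cells and stayed at or below 4.65 in every shRNA library.

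After TGF-β, parental cells had less Bcl2l1, more Bmf, Pmaip1 and Bak1 RNA, and by 24 h more Bcl2l11. After 8 h the test (limma, Benjamini-Hochberg adjusted p under 0.05) called 7 of the 10 members, 4 higher and 3 lower, and 54.5% of all genes tested (22.4% higher, 32.1% lower). After 24 h it called 8, with 5 higher and 3 lower, and 70.5% of all genes (33.4% higher, 37.1% lower). The share of members that changed was therefore near that of all genes, and the count in itself is not a result about the family. The median difference over the members was 0.17 on the log2(FPKM + 1) scale at 24 h, beside -0.019 over all genes tested.

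Among the survival members, Bcl2l1 showed the widest change. It stood at 48.2 and 45.6 FPKM in the untreated parental libraries, at 25.4 and 29.1 after 8 h and at 20.2 and 21.9 after 24 h. Control cells had 62.0 and 58.9 FPKM untreated, 23.6 and 24.4 at 8 h and 23.9 and 22.9 at 24 h, and KD cells had 68.5 and 68.6, then 24.8 and 25.2, then 25.9 and 27.5. In each kind of cell the untreated libraries lay above all treated ones. At 24 h the mean was 2.23-fold lower in parental cells (log2 difference -1.12, SE 0.073, adjusted p = 1.26e-05), 2.59-fold lower in control cells (-1.33, SE 0.045, adjusted p = 2.81e-08) and 2.57-fold lower in KD cells (-1.33, adjusted p = 2.7e-08). In control and KD cells the fall had its full size by 8 h, whereas in parental cells Bcl2l1 fell further between 8 and 24 h, by 0.36 on the log2 scale (adjusted p = 0.00605).

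Mcl1, which encodes a short-lived survival protein, went in opposite directions in the parental and the shRNA tables. In parental cells it rose from 50.2 and 50.1 FPKM to 58.1 and 59.0 at 8 h and 57.0 and 56.6 at 24 h (log2 differences 0.22, adjusted p = 0.00187, and 0.18, adjusted p = 0.00304). In control cells it fell from 68.5 and 62.0 FPKM to 56.8 and 58.3 at 8 h and 56.4 and 56.9 at 24 h (-0.18, adjusted p = 0.00915, and -0.20, adjusted p = 0.00431). The control differences lay close to the median over all genes tested in these cells (-0.14 at 8 h and -0.13 at 24 h), and with quantile normalization they were -0.093 (adjusted p = 0.154) and -0.058 (adjusted p = 0.344). In KD cells Mcl1 fell at 8 h from 64.5 and 64.7 FPKM to 55.9 and 56.7 (adjusted p = 0.00513) and was at 60.8 and 62.3 at 24 h (adjusted p = 0.218).

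Bcl2, the founding survival gene, was the least abundant member. Parental cells had 2.43 and 2.85 FPKM untreated, 2.27 and 2.53 at 8 h and 2.87 and 3.26 at 24 h, and neither difference from untreated cells passed the test (adjusted p = 0.379 and 0.14). In control cells Bcl2 fell at 8 h from 3.59 and 3.10 FPKM to 2.01 and 2.06 (log2 difference -0.51, adjusted p = 0.000517), and in KD cells from 3.26 and 2.98 to 1.70 and 1.74 (-0.60, adjusted p = 0.000174). At 24 h it was at 2.71 and 2.84 FPKM in control cells, where the call sat at the threshold (adjusted p = 0.0499), and at 2.98 and 2.49 FPKM in KD cells (adjusted p = 0.137). The control call was lost under most alternatives, with -0.056 under quantile normalization and -0.12 without replicate 1 of the untreated control cells. The FPKM values of the 3 survival members summed to 101 and 98.6 in untreated parental cells and to 80.0 and 81.8 at 24 h, and to 134 and 124 in untreated control cells and 83.0 and 82.6 at 24 h.

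The effectors moved in opposite directions. Bax stood at 273 and 244 FPKM in untreated parental cells, at 218 and 224 at 8 h and at 207 and 211 at 24 h. In control cells it had 249 and 253 FPKM untreated and 193 and 190 at 24 h, and in KD cells 246 and 242 and then 194 and 197. Untreated and 24 h libraries did not overlap in any of the 3, and Bax fell at 24 h by 0.30 in parental, 0.39 in control and 0.32 in KD cells on the log2 scale (adjusted p = 0.0024, 3.88e-05 and 0.000147). The parental difference at 8 h (-0.22, adjusted p = 0.014) lost its call on leaving out 1 untreated library (-0.14, adjusted p = 0.0509) or 1 library at 8 h (-0.20, adjusted p = 0.0534).

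Bak1, the other effector, rose in all 3 kinds of cell with little spread between libraries. It had 38.3 and 38.2 FPKM in untreated parental cells, 50.4 and 49.9 at 8 h and 51.9 and 51.6 at 24 h. Control cells had 38.8 and 39.1 FPKM untreated, 54.3 and 55.3 at 8 h and 54.9 and 56.4 at 24 h. KD cells had 41.1 and 42.2 FPKM untreated, 59.7 and 60.0 at 8 h and 66.1 and 68.0 at 24 h. At 24 h the mean was 1.35-fold higher in parental cells, 1.43-fold in control cells and 1.61-fold in KD cells (log2 differences 0.43, 0.50 and 0.67, each with an SE of at most 0.035 and adjusted p = 3.79e-05, 1.58e-06 and 2.34e-07).

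Of the BH3-only members, Bmf, which binds survival proteins after loss of attachment and other stress, rose most in parental cells. It went from 17.8 FPKM in both untreated libraries to 45.6 and 37.2 at 8 h and to 53.3 and 55.0 at 24 h, 2.33-fold and 3.04-fold higher (log2 differences 1.17 and 1.55, SE 0.086, adjusted p = 8.6e-05 and 6.35e-06). In KD cells it went from 17.2 and 16.0 FPKM to 32.8 and 32.2 at 8 h and 37.5 and 52.1 at 24 h, with no overlap (0.93 and 1.36, SE 0.24, adjusted p = 0.00702 and 0.00071). In control cells the untreated libraries stood apart from each other, at 28.7 FPKM in replicate 1 and 15.5 in replicate 2, with 22.2 and 21.0 at 8 h and 30.6 and 30.2 at 24 h. The control differences, 0.030 at 8 h (adjusted p = 0.922) and 0.51 at 24 h (adjusted p = 0.0836), therefore hung on that pair. Without replicate 1 of untreated control cells they were 0.45 (adjusted p = 0.038) and 0.93 (adjusted p = 0.00114), and without replicate 2 they were -0.39 (adjusted p = 0.0616) and 0.082. Quantile normalization gave a 24 h difference of 0.63 (adjusted p = 0.036).

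Pmaip1 rose in every kind of cell. It went from 13.1 and 13.2 FPKM in untreated parental cells to 18.0 and 16.0 at 8 h and 29.9 and 29.7 at 24 h. Control cells went from 17.3 and 14.4 FPKM to 22.0 and 21.4 and then 33.6 and 35.0, and KD cells from 19.8 and 19.1 to 27.9 and 27.4 and then 40.0 and 35.5. Within each kind of cell the 3 times did not overlap. The means at 24 h were 2.27-fold, 2.16-fold and 1.94-fold higher than untreated (log2 differences 1.12, 1.07 and 0.92, adjusted p = 4.81e-06, 3.37e-06 and 8.79e-06).

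Bcl2l11 rose in parental cells, mostly between 8 and 24 h. At 8 h its parental difference was 0.15 by limma (adjusted p = 0.0569) and 0.22 with quantile normalization (adjusted p = 0.0225). In control and KD cells the Bcl2l11 differences from untreated cells were negative in the fit of all libraries, and none passed the test. Parental libraries had 3.57 and 3.51 FPKM untreated, 4.19 and 3.91 at 8 h and 7.99 and 8.20 at 24 h, 2.29-fold higher than untreated at 24 h (log2 difference 1.00, SE 0.057, adjusted p = 6.94e-06). Control libraries had 4.65 and 4.17 FPKM untreated, 3.74 and 3.67 at 8 h and 3.76 and 3.995 at 24 h, with a 24 h difference of -0.15 (95% interval -0.46 to 0.16, adjusted p = 0.351). KD libraries had 3.79 and 3.49 FPKM untreated, 3.15 and 3.03 at 8 h and 2.87 and 4.47 at 24 h (24 h difference -0.011, 95% interval -0.32 to 0.30, adjusted p = 0.945). Bcl2l11 in KD cells at 24 h turned on 1 library, at 0.24 without replicate 1 (adjusted p = 0.0179) and -0.26 without replicate 2 (adjusted p = 0.0126). The difference between the parental and the shRNA tables was not tested, because the tables were normalized separately.

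Bid and Bbc3 had lower means after TGF-β in every kind of cell, though the Bbc3 difference did not always pass the test. Bid, which caspase-8 cuts into its active form, went from 42.1 and 43.7 FPKM in untreated parental cells to 31.6 and 36.8 at 8 h and 33.6 and 34.8 at 24 h (log2 difference -0.32 at both times, adjusted p = 0.0075 and 0.00526). Both parental calls were lost without a filter on low values (adjusted p = 0.0857 and 0.0648), and the 8 h call without 1 untreated library (-0.30, adjusted p = 0.0501). In control cells it fell from 35.4 and 30.6 FPKM to 17.7 and 17.9 at 8 h and stood at 22.0 and 23.9 at 24 h (-0.85 and -0.50, adjusted p = 4.08e-05 and 0.000755), and in KD cells from 33.6 and 34.3 to 15.7 and 15.1 and then 24.0 and 28.6 (-1.09 and -0.36, adjusted p = 7.01e-06 and 0.00496). In both shRNA cells the 8 h libraries were thus the lowest and the 24 h libraries lay between them and the untreated ones. The annotated span of Bid overlaps that of Bcl2l13 on the other strand (14.0 to 17.7 FPKM over the 18 libraries). Likewise, Bak1 overlaps Ggnbp1 (at most 0.399 FPKM) and Bcl2 overlaps D630008O14Rik. A figure of the study shows RNA-seq profiles by strand. Whether the FPKM counting used the strand is not stated, so it is unknown if reads from shared stretches were told apart.

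Bbc3, a target of p53, had 6.51 and 5.91 FPKM in untreated parental cells, 4.25 and 5.73 at 8 h and 4.80 and 5.17 at 24 h, and neither difference passed the test (adjusted p = 0.0826 and 0.0743). A limma fit of only the groups compared did call the 24 h difference (-0.27, adjusted p = 0.0077). Without 1 library at 8 h the 8 h difference was -0.46. In control cells it fell from 7.08 and 5.37 FPKM to 3.37 and 3.75 at 8 h and 4.06 and 4.37 at 24 h (log2 differences -0.66 and -0.46, adjusted p = 0.00106 and 0.00625). In KD cells it fell from 6.46 and 7.11 FPKM to 4.47 and 4.52 at 8 h (-0.50, adjusted p = 0.00433) and was at 5.21 and 6.25 at 24 h (adjusted p = 0.127). The 5 BH3-only members together summed to 83.2 and 84.1 FPKM in untreated parental cells and to 130 and 133 at 24 h. In control cells the sums were 93.1 and 70.1 untreated and 94.1 and 97.5 at 24 h, and in KD cells 80.9 and 80.0 untreated and 110 and 127 at 24 h.

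**Figure D2:**
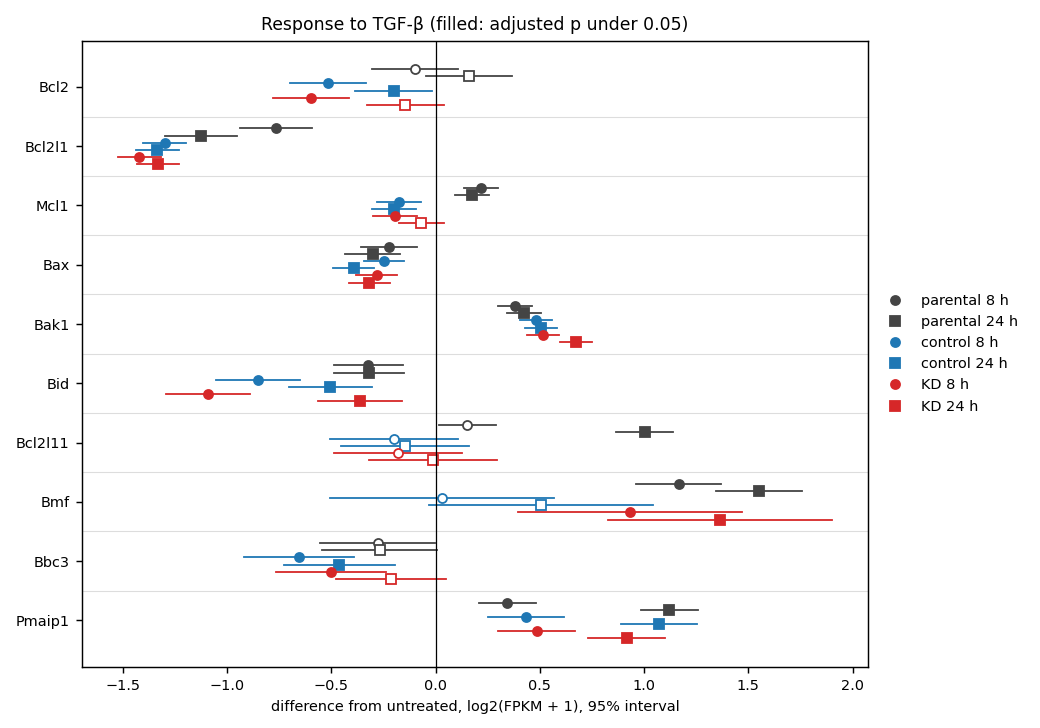
Differences from untreated cells on the log2(FPKM + 1) scale (horizontal axis) are plotted for each member (vertical axis) at 8 h (circles) and 24 h (squares) in parental (grey), control shRNA (blue) and lamin B1 KD cells (red), with 95% intervals from limma and filled symbols where the adjusted p was under 0.05. Bcl2l1 lies left of 0 and Bak1 and Pmaip1 right of 0 in all 6 comparisons, and the Bcl2l11 difference at 24 h is 1.00 in parental, -0.15 in control and -0.011 in KD cells.

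In counts, the test called 8 of the 10 members in control cells after 8 h, 2 higher and 6 lower, and 64.3% of all genes (19.4% higher, 44.9% lower). After 24 h it again called 2 higher and 6 lower, and 70.7% of all genes (25.5% higher, 45.1% lower). In KD cells 3 members were higher and 6 lower after 8 h, with 67.8% of all genes called (23.0% higher, 44.8% lower), and 3 were higher and 3 lower after 24 h, with 71.9% called (28.6% higher, 43.3% lower). From 8 to 24 h in parental cells Bcl2, Bcl2l11, Bmf and Pmaip1 were called higher and Bcl2l1 lower, 5 members, with 51.8% of all genes called (27.7% higher, 24.0% lower). The Bcl2 call (0.26, adjusted p = 0.0434) was lost under quantile normalization (0.17, adjusted p = 0.137), without a filter (adjusted p = 0.182) and without 1 library at 8 h (0.20) or either library at 24 h (0.33 and 0.19). Without a filter the calls of Bmf (adjusted p = 0.105) and Bcl2l1 (adjusted p = 0.0772) were lost too. Quantile normalization raised the median of all genes by 0.12 in control cells at 8 h, 0.13 in control cells at 24 h and 0.10 in KD cells at 8 h. Lower genes then made up 54.0% in place of 69.8% of all calls in control cells at 8 h, 50.01% in place of 63.9% at 24 h, 54.0% in place of 66.1% in KD cells at 8 h and 49.9% in place of 60.2% at 24 h. The members' split became 2 higher and 5 lower in control cells after 8 h and 3 higher and 4 lower after 24 h, and was as before in KD cells.

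Between lamin B1 KD and control cells the members differed by -0.33 to 0.57 on the log2 scale over the 3 times, with Bmf at both ends. Without TGF-β 2 members were higher in KD than in control cells and none lower, where 19.7% of all genes were called (10.6% higher, 9.09% lower). After 8 h it was again 2 higher and none lower, beside 35.8% of all genes (19.3% higher, 16.5% lower), and after 24 h 3 higher and none lower, beside 28.3% (16.8% higher, 11.5% lower). A fit of only the groups compared called 7 members after 8 h, where it called 52.2% of all genes, none before TGF-β (10.1%) and Bak1 after 24 h (8.36%). Bak1 had the steadiest difference. At 24 h both KD libraries, 66.1 and 68.0 FPKM, lay above both control libraries, 54.9 and 56.4, a mean 1.20-fold higher (log2 difference 0.26, 95% interval 0.19 to 0.34, adjusted p = 0.00111), and the call held on leaving out any 1 of the 4 libraries (0.24 to 0.28). At 8 h the Bak1 difference was 0.13 (adjusted p = 0.0196) and in untreated cells 0.094 (adjusted p = 0.0855).

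Pmaip1 was higher in KD cells when untreated (19.8 and 19.1 against 17.3 and 14.4 FPKM, log2 difference 0.29, adjusted p = 0.0393) and at 8 h (27.9 and 27.4 against 22.0 and 21.4, 0.34, adjusted p = 0.0125). At 24 h the difference was 0.13 (95% interval -0.054 to 0.31, adjusted p = 0.255). Bcl2l1 was higher in KD cells when untreated (68.5 and 68.6 against 62.0 and 58.9 FPKM, 0.18, adjusted p = 0.0258) and at 24 h (25.9 and 27.5 against 23.9 and 22.9, 0.18, adjusted p = 0.018), and Bbc3 at 24 h (5.21 and 6.25 against 4.06 and 4.37 FPKM, 0.36, adjusted p = 0.0463). The genes called higher in KD cells at 1 time or another included a survival gene, an effector and BH3-only genes. The counts, 2, 2 and 3 of 10, stand beside 10.6%, 19.3% and 16.8% of all genes called higher. In themselves they are not a result about the family or its classes. Apart from Bak1 at 24 h, each call of a member between KD and control cells was lost on leaving out at least 1 of the libraries compared. The count of members called then ranged from 0 to 2 before TGF-β, 0 to 1 after 8 h and 1 to 4 after 24 h. Before TGF-β there were 2 calls without control replicate 1, 1 lower member (Bmf) without control replicate 2, and none without either KD library. At 8 h there was 1 call without control replicate 1 and none without any other library. At 24 h there was 1 call without either control library, 4 without KD replicate 1, and 1 higher and 1 lower without KD replicate 2. The share of all genes called higher moved as well, to 3.31% and 3.82% without the KD libraries before TGF-β, to between 11.4% and 12.5% after 8 h, and to 6.85% and 7.98% without the control libraries after 24 h. Epithelial markers also differed between KD and control cells, with Cdh1, the gene of E-cadherin, higher by 0.68 at 8 h and 0.94 at 24 h, and of 6 tested markers 2 were higher and 2 lower after 8 h, and 2 were higher after 24 h. Their part in the differences of the members was not tested.

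Bmf did not pass the test between KD and control cells at any time, with intervals that were wide. The difference was -0.33 in untreated cells (95% interval -0.87 to 0.20, adjusted p = 0.361), 0.57 at 8 h (0.030 to 1.11, adjusted p = 0.093) and 0.53 at 24 h (-0.013 to 1.06, adjusted p = 0.127), although at 8 h its KD libraries (32.8 and 32.2 FPKM) lay above its control libraries (22.2 and 21.0) and at 24 h likewise (37.5 and 52.1 against 30.6 and 30.2). In a fit of only the 8 h groups the adjusted p was 0.000199. Bax, Mcl1, Bcl2, Bid and Bcl2l11 did not pass at any time in the fit of all groups, with 95% intervals for Bax inside -0.17 to 0.13. The fit of only the 8 h groups called Bcl2 (-0.16, adjusted p = 0.0479), Bid (-0.20, adjusted p = 0.00739) and Bcl2l11 (-0.20, adjusted p = 0.0168) lower and Bbc3 higher (0.27, adjusted p = 0.0097), beside Bak1, Bmf and Pmaip1.

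**Figure D3:**
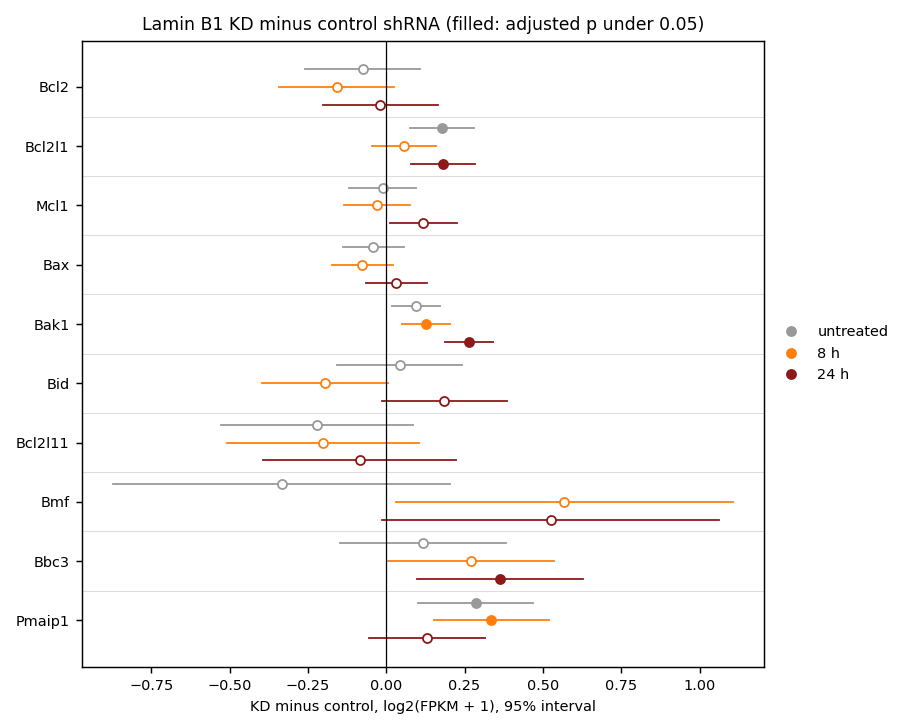
KD minus control differences on the log2(FPKM + 1) scale (horizontal axis) are plotted for each member (vertical axis) in untreated cells (grey) and at 8 h (orange) and 24 h (dark red) of TGF-β, with 95% intervals from limma and filled symbols where the adjusted p was under 0.05. All 7 filled symbols lie right of 0, and the intervals of Bmf are the widest.

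To ask whether KD altered the reaction to TGF-β, the change in control cells was subtracted from that in KD cells. By limma no member was called after 8 h, where 4.06% of all genes were (2.45% higher, 1.61% lower), or after 24 h, where 4.72% were (2.73% higher, 1.98% lower; lower genes were 42.0% of these calls and 52.0% under quantile normalization), with 1 member at an unadjusted p under 0.05 at 8 h (Bmf) and 2 at 24 h (Bmf and Bak1). For Bmf the KD response exceeded the control response by 0.90 at 8 h (95% interval 0.14 to 1.66, adjusted p = 0.17) and 0.86 at 24 h (0.098 to 1.62, adjusted p = 0.165). These values rest on the untreated control pair described above: without its replicate 2 they were 1.33 (adjusted p = 0.00905) and 1.28 (adjusted p = 0.0111), and without its replicate 1 they were 0.48 (adjusted p = 0.265) and 0.43 (adjusted p = 0.271). For Bak1 at 24 h the difference in response was 0.17 (95% interval 0.062 to 0.28, adjusted p = 0.0808), 0.19 without KD replicate 1 at 24 h (adjusted p = 0.0249) and 0.084 under quantile normalization.

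Other genes of the pathway were read from lists chosen by function, with earlier results of these data known. Their counts in parental cells at 24 h stand beside 33.4% of all genes called higher and 37.1% called lower. Of 15 further BCL2 family genes, 7 were expressed enough to test in parental cells, and at 24 h 3 of these rose and 1 fell: Bnip3l by 0.21, Bcl2l2, another survival gene, by 0.17, and Bcl2l12 by 0.16, while Bnip3, a mitophagy receptor induced by hypoxia, fell by 0.62. Of 20 genes that carry out apoptosis, 2 rose and 10 fell (a median of -0.15 beside -0.019 over all genes). The rises were Casp6, an executioner caspase, by 0.54 and Apaf1, the scaffold of the apoptosome, by 0.15. Among the falls was Birc5, which encodes survivin and acts in mitosis too, by 1.62. Of 9 tested genes of the death receptor branch 2 rose (Cflar, an inhibitor of caspase-8, by 0.19 and Tradd by 0.16) and 4 fell (most Fadd by 0.70 and Tnfrsf1a by 0.40).

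The p53 list holds p53 itself (Trp53) and known targets other than the family members. In untreated cells 9 of 18 tested genes were higher in KD cells and none lower, while 10.6% of all genes were higher. At 8 h 8 were higher and 1 lower (19.3% of all genes higher), and at 24 h 5 were higher and none lower (16.8%). At 8 h the largest were Btg2, an antiproliferative gene (14.1 and 13.6 FPKM in KD against 7.38 and 6.59 in control cells, log2 difference 0.90, adjusted p = 0.00253) and Eda2r (0.67, adjusted p = 0.000227), and the lower gene was Trp53 (-0.30, adjusted p = 0.0143). Leaving out 1 library lowered the untreated count most without KD replicate 1 (3, with 3.31% of all genes higher) and KD replicate 2 (5, with 3.82%), and the 8 h count without control replicate 2 (5, with 11.4%). The 24 h count was 2 and 1 without control replicates 1 and 2 (6.85% and 7.98% of all genes), and 10 without KD replicate 2 (14.9%).

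In the death receptor branch 4 of 9 tested genes were higher in KD cells at each time and none lower, beside the same shares of all genes as for the p53 list. Fas, a death receptor and p53 target, had 8.61 and 8.26 FPKM in KD against 3.35 and 3.04 in control cells at 8 h (log2 difference 1.17, adjusted p = 0.000157), and its differences were 0.96 in untreated cells and 0.93 at 24 h (adjusted p = 0.000768 and 0.000758). Tnfrsf10b, the receptor for TRAIL, was higher by 0.27 at 8 h (adjusted p = 0.0232). The count of 4 fell to 2 without KD replicate 1 in untreated cells (3.31% of all genes higher), without control replicate 2 or either KD library at 8 h (11.4% to 12.1%), and without control replicate 2 at 24 h (7.98%). In parental cells at 24 h of TGF-β the p53 list was mixed, with 5 of 17 tested genes higher and 8 lower (33.4% and 37.1% of all genes). Gadd45a (2.91) and Ddit4 (1.38), both stress-induced, had the largest rises, and Perp (-0.67) and Cdkn1a, the cell cycle inhibitor p21 (-0.49), the largest falls. Of 20 execution genes 1 was higher in KD cells at 8 h (Dffa, 0.34) and 7 were lower, most Casp2 (-0.79) and Parp1 (-0.52), beside 19.3% of all genes higher and 16.5% lower, and of 8 further family genes Bcl2l2 was higher (0.42) and Bcl2l15 lower (-0.29).

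The genes whose profiles over the 12 shRNA libraries were most like those of the 3 widest-ranging members were named by Pearson's r of log2(FPKM + 1) among 2976 genes whose group means spanned at least 1. For Bcl2l1 they were Wnk4 and Slc9a3r1 (r = 0.998 for both), for Bmf Tlr2 (0.945) and Acox2 (0.943), and for Pmaip1 Dusp8 (0.991) and Fads3 (0.989). The libraries share treatment times, so these values describe likeness over 6 groups and carry no test.

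Lamin B1 peaks lay at most of the members. A peak overlapped the span from 2500 bp upstream of the gene start to the 3′ end for 7 of 10 members before TGF-β, 8 after 8 h and 7 after 24 h, against 33.6%, 56.5% and 44.0% of 10614 placed genes that passed the expression filter and 19.9%, 38.8% and 29.4% of all 20994 placed genes. The lists have 1 library each and no reads, so there is no test and the depth is unknown, and a score cannot be compared between lists as an amount. The 8 h list was also the longest, with 10484 peaks beside 4645 untreated and 7083 at 24 h, and 5 of 10 members had a peak at 8 h when the lists were brought to equal length (32.5% of the expressed genes and 21.1% of all placed genes did), and likewise among peaks at or above the median score (35.6% and 23.4%).

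Bcl2, Mcl1, Bcl2l11 and Bmf had a lamin B1 peak over the gene start in all 3 lists. MACS, the program that called the peaks, gives each a score that grows with its significance. At Bmf (chr2:118354493-118375423, minus strand) the peaks over the start had MACS scores of 82.2 untreated, 90.5 at 8 h and 70.3 at 24 h, and covered 200, 200 and 177 of the 200 upstream bases printed above. At Bcl2l11 (chr2:127951774-127988283, plus strand) they had scores of 77.1, 134 and 80.7 and covered the whole upstream window each time. At Mcl1 (chr3:95462643-95467099, plus strand) the scores were 128, 77.4 and 260, and at Bcl2 (chr1:108434755-108610851, minus strand) 71.6, 245 and 68.8. All of these peaks overlapped the first annotated exon, since the gene start lay inside them. The lowest score in each list was 50, so that several of these peaks were near the limit of what was listed.

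The other members changed between lists. Bcl2l1 (chr2:152593052-152657464, minus strand) had a peak over its start only at 8 h (score 52.5), while in untreated cells its 1 peak overlapped an exon 50311 bp downstream of the start (score 69.4), and at 24 h it had none. Bak1 (chr17:27156755-27165954, minus strand) had 1 peak, at 8 h, that overlapped an exon within 500 bp of the start without covering it (score 54.2). This peak did cover 3 other annotated transcript starts of Bak1, 2 of them of coding transcripts. Bid had a peak over its start at 8 h and 24 h (85.6 and 141), Bax untreated and at 24 h (54.1 and 143), and Bbc3 untreated and at 8 h (70.2 and 85.3). Further peaks inside Bbc3 were listed untreated (70.9), at 8 h (61.7, 160 and 144) and at 24 h (124). Pmaip1, on chromosome 18, had no lamin B1 peak in any list, also not within 10000 bp of the gene. In parental cells Bmf and Bcl2l11 rose, and both had a peak over the start in every list. Such peaks were also listed at genes that fell, Bax (untreated and at 24 h) and Bid (at 8 h and 24 h). Bcl2 and Mcl1, with small changes in parental cells, had them in every list. Pmaip1 and Bak1 rose with no peak over the gene start, and Bcl2l1 fell with a peak there only at 8 h. Whether these peaks go with the direction of change was not tested.

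ATAC peaks within 500 bp of the gene start were listed for 3 members before TGF-β (Bcl2l1, Bid and Bcl2l11), for the same 3 after 8 h and for all 10 after 24 h. Of the placed genes that passed the expression filter 56.3%, 46.1% and 84.0% had one, and of all placed genes 30.6%, 25.0% and 47.1%. The 24 h list is longer, with 33811 peaks beside 9782 and 10340, and with lists of equal length 5 of 10 members had one at 24 h, as did 52.2% of the expressed genes and 28.3% of all placed genes. At Bcl2l1 the peak over the start had scores of 212, 145 and 563 and a further peak lay in an intron about 25.6 kb downstream in untreated cells (score 99.3), with intronic peaks near it at 8 h (61.8) and 24 h (206). At Bmf and Pmaip1, which rose in parental cells at both times, a peak at the start was listed only at 24 h (scores 144 and 155). The same held at Bax, which fell, and at Bcl2, Mcl1 and Bbc3. For Bak1, which rose at both times, a peak centred at -9618 bp from the start was listed in untreated cells (128). Peaks in the same stretch were listed at 8 h (110) and 24 h (364), and a peak near the start only at 24 h (89.4). Among 24 h peaks at or above the list's median score (155.23), 7 of 10 members had one. So did 70.4% of the expressed genes and 38.5% of all placed genes. The peaks at the starts of Bmf, Pmaip1 and Bak1 scored below that median.

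**Figure D4:**
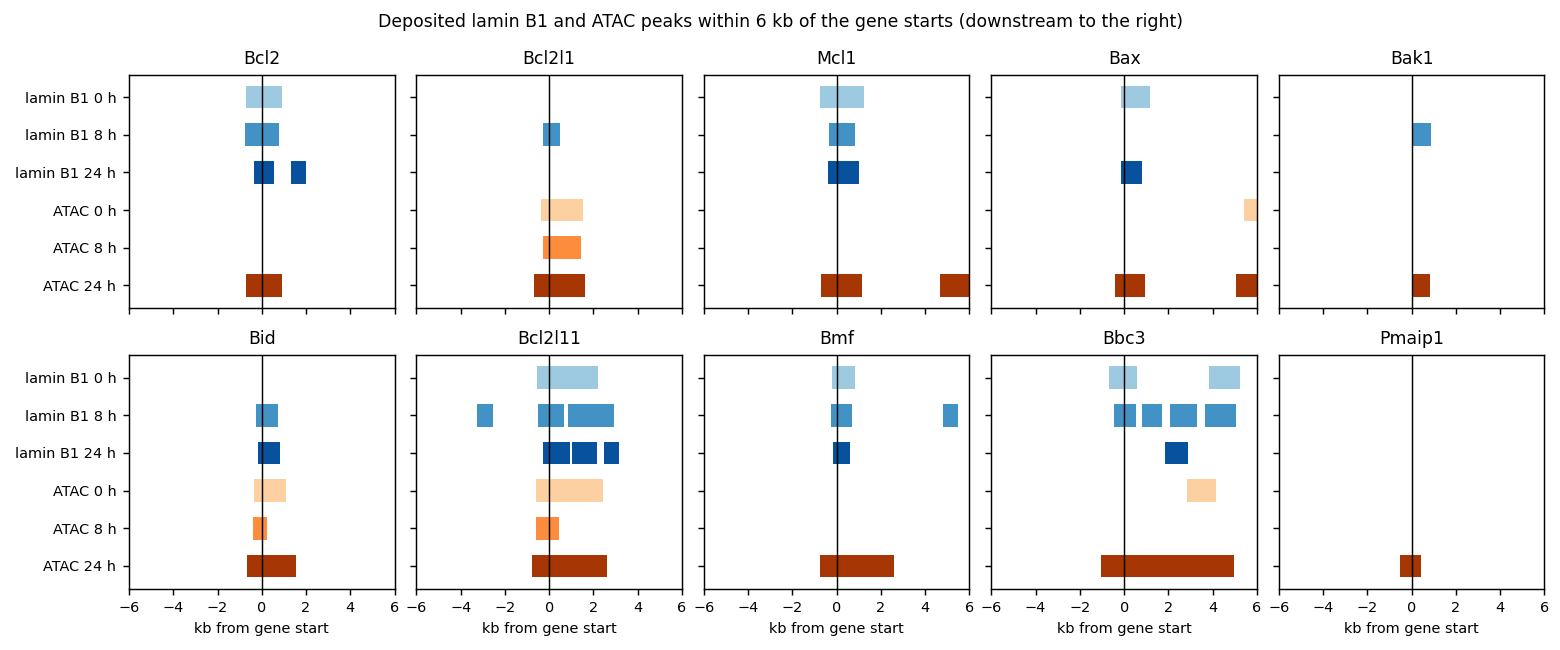
Deposited peaks within 6 kb of each member's annotated start are drawn to scale, with distance from the start in kb on the horizontal axis (transcribed side to the right) and the 3 lamin B1 lists (blue) and 3 ATAC lists (orange) on the vertical axis, 1 library each. Lamin B1 bars cross the start of Bcl2, Mcl1, Bcl2l11 and Bmf in all 3 lists and are missing at Pmaip1, and ATAC bars lie at all 10 starts at 24 h.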

How the data were processed

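RNA-seq, lamin B1 ChIP-seq and ATAC-seq files of NMuMG cells were used; Hi-C is not analysed here. Bowtie, TopHat and Cufflinks are named in the submitters' processing notes, with no versions given. The authors deposited FPKM values, 1 column per library, in 2 tables without a header line. Columns were assigned to groups by the order of groups that the labels spell out for each table, which the tables themselves cannot show, and the parental columns carry no replicate number. No counts were given, so the depth is unknown. The authors deposited peak lists with a MACS score, on mm9.

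Differences were fitted with limma 3.58.1 under R 4.3.3 (eBayes with a trend) on log2(FPKM + 1), with all libraries of a table in 1 fit, for genes that reached an FPKM of 1 in 2 or more libraries. Such differences understate the change of low genes. P-values were adjusted by Benjamini-Hochberg over all genes tested, with calls at an adjusted p under 0.05; SE and 95% intervals come from the same fit. The method was tested on simulated data. Genes were placed with GENCODE M1 (NCBIM37, the same build as mm9), and sequences were read from that genome. Of the 23295 parental symbols, 20994 were placed once.

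All 10 members were named. From each list, the 2 largest rises and 2 largest falls were named in parental cells at 24 h and in KD against control cells at 8 h; Bcl2l12 and the other values of Fas were added after the values were seen. Some genes that the rule would name are not reported here. The members and lists were chosen with earlier results of these data known. The alternatives tried were another added constant, other filters, quantile normalization, fits of only the groups compared, leaving out each library, a replicate block, a fold criterion, and for peaks a score cut, equal list lengths and other windows. Windows around any annotated transcript start were added after seeing the data.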

Additional observations from a re-analysis of the deposited data

Results flagged for a closer look

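Mcl1 and Bcl2l11 at both times and Bcl2 at 24 h had differences of opposite sign in parental and control shRNA cells, with both treated libraries above both untreated ones in parental cells and below them in control cells. The parental differences of Bcl2 at 24 h and Bcl2l11 at 8 h and the control differences of Bcl2l11 did not pass the test. Mcl1 differed from untreated cells by 0.22 at 8 h and 0.18 at 24 h in parental cells and by -0.18 and -0.20 in control cells, on the log2(FPKM + 1) scale. Bcl2l11 differed by 0.15 at 8 h and 1.00 at 24 h in parental cells and by -0.20 and -0.15 in control cells. Bcl2 at 24 h differed by 0.16 in parental and -0.20 in control cells. The difference between parental and control cells was not tested, because the tables were normalized separately. With quantile normalization the control difference of Bcl2l11 at 24 h was 0.0066.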

How the results depend on the processing

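Of the members called, 2 at 8 h and 4 at 24 h in parental cells and 2 between these times also differed by at least 1.5-fold. In control cells 3 and 2 did, and in KD cells 4 did at 8 h and Bcl2l1, Bak1, Bmf and Pmaip1 at 24 h. For KD against control cells none did at any time. The cut was made on log2(FPKM + 1). By ratios of mean FPKM, Bcl2 in control cells (1.64-fold) and Bbc3 in KD cells (1.51-fold) at 8 h would pass too. Without a filter, 3 members were called between 8 and 24 h in parental cells and 1 for the difference in response at 24 h. In fits of only the groups compared, KD against control cells gave 0, 7 and 1 members (untreated, 8 h, 24 h). Leaving out 1 library gave 6 to 9 members in parental cells at 8 h, 8 at 24 h, 4 to 5 between them, 7 to 9 in control cells at 8 h, 7 to 8 at 24 h, 9 and 6 to 8 in KD cells, 0 to 2, 0 to 1 and 1 to 4 for KD against control cells, and 0 to 1 and 0 to 2 for the difference in response. Signs turned for Bmf in control cells at 8 h (-0.39 to 0.45 over libraries left out, -0.0097 without control replicate 1 at 8 h) and between KD and control untreated cells (-0.76 to 0.090), for Bcl2l11 in KD cells at 24 h (-0.26 to 0.24, with 0.036 without KD replicate 1 untreated), and under quantile normalization for Bcl2l11 in control cells at 24 h (0.0066) and KD cells at 8 h (0.0089) and 24 h (0.16). The causes were not tested. Lamin B1 peaks at 8 h were at 5 members among peaks at or above the median score and at 5 with lists of equal length; ATAC peaks at 8 h were at 1 member by the score (28.0% of expressed genes) and at 24 h at 5 with equal lengths.

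No paired analysis was possible because the columns carry no replicate number in the parental table. In the shRNA table deviations of same-numbered libraries correlated between -0.135 and 0.368 over 15 pairs of groups, over 0.1 in 2. These were control and KD cells at 24 h (0.368) and KD cells untreated and at 24 h (0.184). Whether same-numbered libraries were paired cannot be told from these values. With the replicate block the difference of Bbc3 between KD and control cells at 24 h (0.36) had an adjusted p of 0.0612, and no other call of a member changed.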
